A study of Mus musculus and Homo sapiens with 32 samples.

Results

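Nanog, Sox2 and Pou5f1 (also known as Oct4) encode the core transcription factors of pluripotent cells, and their RNAs were followed here by mapping m6A, a methyl group on adenosines inside RNA. The 3 genes were taken by name from 11197 genes named in the deposited genotype files. They hold 6 of the 33473 regions of the table that compares genotypes, and peaks were counted as theirs when they overlapped the listed exon blocks or lay within 2 kb of them. Pou5f1 and Sox2 proteins bind DNA as a pair, and with Nanog they activate their own genes and each other's, while holding genes of differentiated lineages off. In stem cells, m6A on such transcripts is placed by the Mettl3 writer complex and is best known for shortening the life of the RNA.

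The assay, m6A-CT, tagments RNA paired with cDNA inside permeable nuclei where an anti-m6A antibody is bound, and input libraries are tagmented without antibody. In all, 32 libraries form 16 groups of 2, and nothing says that a pair came from separate cultures. Mouse E14 embryonic stem cells were used at 100K, 25K and 5K nuclei, and expanded potential stem cells (EPSC, labelled as made from E14) and CF1 embryonic fibroblasts (MEF) at 100K, all with the Synaptic Systems antibody. The genotype set comprised 8 libraries of C57BL/6 embryonic stem cells, wild-type or labelled Mettl3-/- (KO), with the MilliporeSigma antibody; neither the deleted part of Mettl3 nor the number of clones is given. Each file gives 1 value per group, so no spread between replicates could be estimated, and every interval covers counting error only. Reads copied by PCR, with no molecular identifiers, do not count molecules one by one.

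The genotype columns rest on 39310394 reads (wild-type m6A-CT), 45090626 (wild-type input), 37532658 (Mettl3 KO m6A-CT) and 51031598 (Mettl3 KO input), and the depth of the other lists is unknown. Regions of Lars2 and Rn45s alone held 36.5%, 76.4%, 54.5% and 81.0% of these reads, so the members' values in RPM (reads scaled to a common library total) are also given without them. The listed Mettl3 region was at 1.71 RPM of wild-type input and 2.47 RPM of Mettl3 KO input, and this does not check the label because the deleted part is unknown. Of 10 embryonic stem cell markers, 7 had a region, whose input summed to 311 RPM (wild-type) and 222 RPM (Mettl3 KO), or 1319 and 1169 RPM with Lars2 and Rn45s left out. Fibroblast markers (3 of 10 listed) summed to 0.599 and 1.18 RPM, and trophectoderm and primitive endoderm markers (7 of 12 listed) to 20.4 and 16.7 RPM, most of it Tfap2c at 15.8 and 13.5 RPM. Fbn1 and Dab2, of these last 2 lists, had no wild-type input read. A marker without a region is not thereby at 0, since the table keeps almost only regions past the authors' threshold. The part of these markers in the results was not tested.

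The promoters are shown first, because the octamer motif of Pou5f1 and the motif of Sox2 are the letters through which this circuit reads itself, and because the input RNA of all 3 genes is compared between genotypes further on. The 250 bases before the RefSeq start site (build GRCm38.p6, plus strand) are given 5′ to 3′ for each gene, with the octamer core ATGCAAA and the Sox motif ACAATG, searched on both strands, in capitals.
Nanog, chr6:122707239-122707488: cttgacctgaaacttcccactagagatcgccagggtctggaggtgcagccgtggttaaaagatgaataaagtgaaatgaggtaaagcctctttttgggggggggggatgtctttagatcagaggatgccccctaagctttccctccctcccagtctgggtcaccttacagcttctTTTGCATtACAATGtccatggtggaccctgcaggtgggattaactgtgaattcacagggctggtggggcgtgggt
Sox2, chr3:34649745-34649994: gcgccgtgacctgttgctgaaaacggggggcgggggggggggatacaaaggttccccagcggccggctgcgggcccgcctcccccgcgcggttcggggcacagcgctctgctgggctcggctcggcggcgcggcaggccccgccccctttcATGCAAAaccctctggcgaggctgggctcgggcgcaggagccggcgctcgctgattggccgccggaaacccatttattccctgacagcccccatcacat
Pou5f1, chr17:35505782-35506031: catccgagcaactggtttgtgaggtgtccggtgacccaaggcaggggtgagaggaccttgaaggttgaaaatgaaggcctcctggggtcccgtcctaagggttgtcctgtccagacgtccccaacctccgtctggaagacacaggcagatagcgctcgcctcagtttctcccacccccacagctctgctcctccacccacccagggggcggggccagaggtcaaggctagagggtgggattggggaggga

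In the Nanog window the octamer core, on the minus strand, begins at position -75 and is followed after 1 base by the Sox motif. The exact letters of that run, with the spacer base of Nanog, occurred in 2 of 32851 RefSeq promoter windows of this length (0.0061%). Both are alternative starts of Nanog. As the letters were copied from Nanog, a match there was fixed in advance, and runs with another spacer base were not searched. The octamer core alone was present in 4.12% and the Sox motif in 10.7% of the windows. Sox2 held the octamer core at -99 and no ACAATG, but the alternative Sox motif ACAAAG, present in 16.5% of the windows, at -206. The Pou5f1 window shown held none of these 3, and the Nanog window no ACAAAG. A second RefSeq start of Pou5f1 had the Sox motif at -158. These matches are a description of letters, not of binding.

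Sox2, an HMG-box factor encoded by an intronless gene, was listed as a single region of 2466 bp at mm9 chr3:34548917-34551382, against a RefSeq gene length of 2467 bp. In wild-type it had 296 RPM of m6A-CT and 106 RPM of input, and in Mettl3 KO 112 RPM of m6A-CT and 82.7 RPM of input. The wild-type m6A-CT value is thus the highest of the 4 by a wide margin, while the other 3 lie close together. Sox2 lies within the gene of the long noncoding RNA Sox2ot, which has no region in the files; how the authors assigned reads from overlapping genes is not given.

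Nanog, a homeodomain factor that guards the naive state, was listed in 3 regions. The last of them, of 1993 bp at chr6:122662659-122664651, went from 224 RPM of m6A-CT and 123 RPM of input in wild-type to 131 and 87.2 RPM in Mettl3 KO. The middle region, of 250 bp at chr6:122661559-122661808, had 67.6 and 54.3 RPM in wild-type and 41.2 and 36.0 RPM in Mettl3 KO. The first, of 325 bp at chr6:122657605-122657929, had 26.0 and 14.5 RPM in wild-type and 15.6 and 9.11 RPM in Mettl3 KO. All 3 had lower RPM in Mettl3 KO in both kinds of library.

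Pou5f1, the POU-domain partner of Sox2, was listed only in stretches of 100 bp (chr17:35646365-35646464) and 150 bp (chr17:35646932-35647081), together 250 bp beside a RefSeq gene length of 4746 bp. The 100-bp stretch had 28.5 RPM of m6A-CT and 45.1 RPM of input in wild-type, and 36.2 and 35.3 RPM in Mettl3 KO. The 150-bp stretch had 27.2 and 40.1 RPM in wild-type and 34.9 and 30.8 RPM in Mettl3 KO. Here input was above m6A-CT in wild-type, the reverse of Sox2 and Nanog; with Lars2 and Rn45s left out, input was above m6A-CT in the 3 Nanog regions too, and the contrast held for Sox2 alone. The rest of Pou5f1 is not listed and was not analysed here. Nanog and Pou5f1 have processed pseudogenes, and how reads that match several copies were counted is not given.

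**Figure D1:**
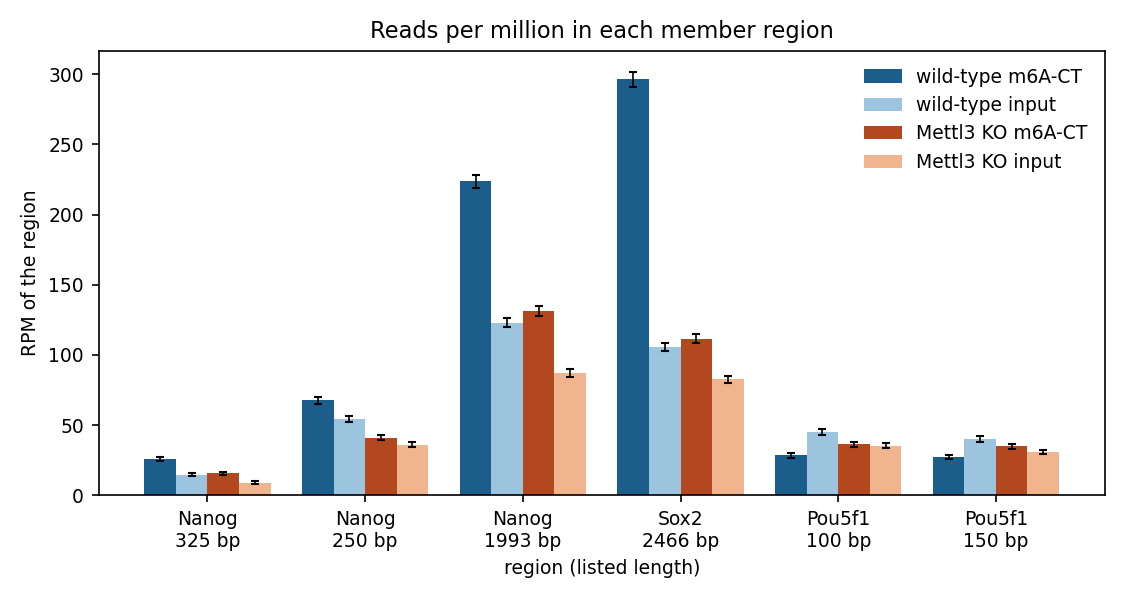
RPM in the 6 regions of Nanog, Sox2 and Pou5f1, named with their listed length, in the 4 pooled columns of the genotype table; bars start at 0 and error bars are 95% counting intervals. The wild-type m6A-CT bar stands highest in Sox2 (296 RPM) and Nanog, and below its input bar in both Pou5f1 stretches. With Lars2 and Rn45s left out it would also lie below it in Nanog, and close to it in Sox2 (ratio 1.04).

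Per kb of listed sequence, wild-type input was highest in the Pou5f1 stretches, at 451 and 267 RPM per kb. The Nanog regions followed at 44.8, 217 and 61.7 RPM per kb from first to last, and Sox2 was at 42.8 RPM per kb. In Mettl3 KO the input levels were 353 and 205 RPM per kb for Pou5f1, 28.0, 144 and 43.7 for Nanog, and 33.5 for Sox2. The order of the genes by their longest region was the same in both genotypes. All 6 regions were deeply read: each had more reads than at least 93.3% of all regions, from 2729 reads over the 4 columns (first Nanog region) to 24815 (Sox2).

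The ratio of m6A-CT to input by RPM sets the library with antibody against that without, and its level depends on the library totals. Sox2 went from 2.80 (95% counting interval 2.71 to 2.90) in wild-type down to 1.35 (1.29 to 1.41) with Mettl3 KO. For the last Nanog region it was 1.82 (1.76 to 1.88) and 1.50 (1.44 to 1.57). The middle Nanog region, at 1.25 (1.18 to 1.32) and 1.14 (1.07 to 1.22), and the first, at 1.79 (1.62 to 1.97) and 1.72 (1.52 to 1.94), had intervals that overlapped between genotypes. The Pou5f1 stretches moved the other way, from 0.63 (0.59 to 0.68) to 1.03 (0.96 to 1.10) and from 0.68 (0.63 to 0.73) to 1.13 (1.05 to 1.22). With Lars2 and Rn45s left out, every wild-type ratio was multiplied by 0.371 and every Mettl3 KO ratio by 0.417. Sox2 then went from 1.04 to 0.56, the Nanog regions from 0.66, 0.46 and 0.68 to 0.72, 0.48 and 0.63, and the Pou5f1 stretches from 0.23 and 0.25 to 0.43 and 0.47. Of these only Sox2 in wild-type was above 1, and the median over all regions was 1.24 (wild-type) and 0.79 (Mettl3 KO).

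**Figure D2:**
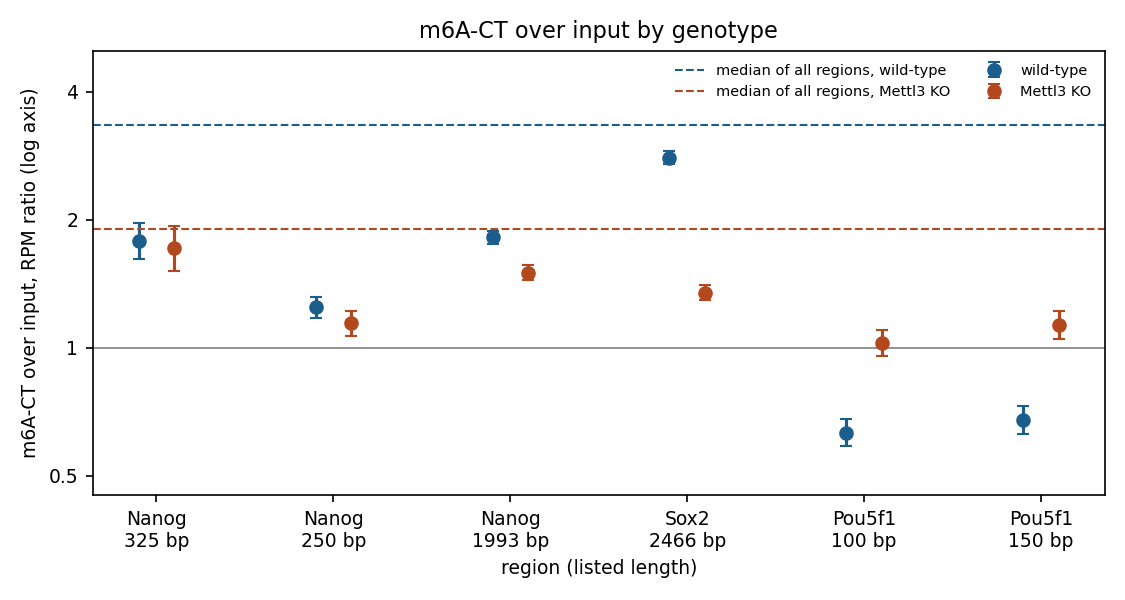
Ratio of m6A-CT to input by RPM (log axis) in each region, wild-type and Mettl3 KO, with 95% counting intervals; dashed lines are the medians over all listed regions, 3.34 (wild-type) and 1.90 (Mettl3 KO). Every one of the 6 regions lies below the median line of its genotype, and both Pou5f1 stretches lie below 1 in wild-type; with Lars2 and Rn45s left out, all but wild-type Sox2 (1.04) would lie below 1.

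None of the 6 regions reached the median ratio of its genotype. The median ratio over all regions was 3.34 for wild-type against 1.90 for Mettl3 KO, and 91.5% and 80.8% of regions were above 1 (60.2% and 37.0% with Lars2 and Rn45s left out). Sox2 ranked above 41.6% (wild-type) and 31.4% (Mettl3 KO) of regions. Nanog ranked above 22.0%, 12.2% and 22.8% in wild-type, from first to last region, and Pou5f1 above 4.30% and 4.75%. Among the 573 regions with at least 1000 wild-type input reads, the medians were 2.19 and 1.87, and 18.2% were below 1 in wild-type. This background was chosen after the data were examined, and by the input that divides the wild-type ratio, which favours low ratios.

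The authors' test compares these ratios between genotypes with an offset of their model, which was a median of -0.50 on the log2 scale against the plain RPM ratio. Sox2 had a log2 change of -1.55 in the authors' deposited table (counting SE of the RPM change 0.04), with p-value and FDR listed as 0. The 3 Nanog regions fell by 0.56 (counting SE 0.12, FDR 1.99e-05), 0.63 (0.06, FDR 1.04e-20) and 0.80 (0.04, FDR 1.44e-90) in the authors' deposited table. Both Pou5f1 stretches rose there, by 0.23 (counting SE 0.07, FDR 0.012) and 0.27 (0.08, FDR 0.00427). Thus 4 of the 6 regions were called lower, where 88.8% of all regions were, and 2 higher, where 11.0% were. All regions of a gene share its RNA and libraries, so they are not independent of each other.

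For Nanog the direction depended on the scaling. On the RPM scale the 3 changes were -0.06 (95% counting interval -0.28 to 0.17), -0.12 (-0.25 to 0.00) and -0.28 (-0.35 to -0.20), and with Lars2 and Rn45s left out they were 0.11, 0.04 and -0.11. Sox2 was lower on each of these scales, at -1.05 and -0.89, and Pou5f1 higher, at 0.70 and 0.87 for the 100-bp stretch and 0.74 and 0.91 for the 150-bp stretch. Median changes over all regions were -1.35 on the authors' scale, -0.82 by RPM and -0.65 without both genes. Relative to the RPM median, Sox2 was at -0.23, the Nanog regions between 0.55 and 0.76, and Pou5f1 at 1.52 and 1.56. Sox2 thus changed about as much as the middle of the table, ranking above 40.0% of regions on the authors' scale, whereas Nanog ranked above 77.7% to 85.6% and Pou5f1 above 89.0% and 89.1%. Among the regions with at least 1000 wild-type input reads the authors' median was -0.68, and 14.0% were called higher.

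Differences between the members do not depend on a scaling that shifts all regions alike. Sox2 changed by -0.78 (95% counting interval -0.89 to -0.67) more than the last Nanog region on the log2 RPM scale, and by -1.76 (-1.92 to -1.59) more than the 100-bp Pou5f1 stretch. The last Nanog region differed from that stretch by -0.98 (-1.14 to -0.81). Within Nanog, the middle region differed from the last by 0.15 (0.01 to 0.30), the first from the last by 0.22 (-0.02 to 0.46), and the first from the middle by 0.07 (-0.19 to 0.32). The Pou5f1 stretches differed by -0.04 (-0.25 to 0.17). The 3 genes are therefore ordered Sox2, Nanog, Pou5f1 from the strongest fall to the rise, and regions of a gene lay closer to each other than to those of another gene.

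The change can be read in each kind of library separately. By RPM, m6A-CT reads of Sox2 were lower in Mettl3 KO by a log2 change of -1.41 (-1.46 to -1.36), while its input changed by -0.35 (-0.41 to -0.29). The Nanog regions changed by -0.73, -0.72 and -0.77 in m6A-CT and by -0.68 (-0.85 to -0.50), -0.59 (-0.68 to -0.50) and -0.50 (-0.55 to -0.44) in input. In the last region the fall in m6A-CT was the larger on this scale, and in the other 2 the interval of the difference included 0. Pou5f1 had more m6A-CT reads (0.35 and 0.36) and fewer input reads (-0.35, -0.44 to -0.26, and -0.38, -0.48 to -0.28). Input was therefore lower in Mettl3 KO in all 6 regions, against 51.1% of all regions, and m6A-CT in 4 of 6, against 83.4%. In bulk nuclei, fewer cells of a type and less RNA per cell cannot be told apart.

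Lower input was also seen in other regions, and its size depended on the scaling. Regions with at least 1000 wild-type input reads had a median input change of -0.40, against -0.02 over all regions. That cut uses the wild-type input from which the change is measured, which favours falls. The first Nanog region, with 656 such reads, does not meet it. Leaving out the reads of Lars2 and Rn45s raised every log2 input change by 0.31, so the order of regions stayed the same. Input of Sox2 then changed by -0.04 and of Pou5f1 by -0.04 and -0.07. Nanog changed by -0.36, -0.28 and -0.18 from first to last region. The median was -0.09 over the deeply read regions but 0.29 over all regions, of which 32.7% were lower. Input of the last Nanog region changed by -0.14 (-0.25 to -0.03) more than that of the 100-bp Pou5f1 stretch, and Sox2 and that stretch differed by -0.00055 (-0.11 to 0.11). Summed input of the embryonic stem cell markers, at 311 and 222 RPM, was lower too, also with Lars2 and Rn45s left out. By RPM, 5 of the 7 were lower, and Klf4 alone went from 57.4 to 21.0 RPM. With Lars2 and Rn45s left out, Klf4 (-1.14), Tdgf1 (-0.36), Fgf4 (-0.33) and Zfp42 (-0.10) were lower. Esrrb (0.17), L1td1 (0.52) and Dppa4 (0.69) were then higher. The part of these markers in these values was not tested.

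**Figure D3:**
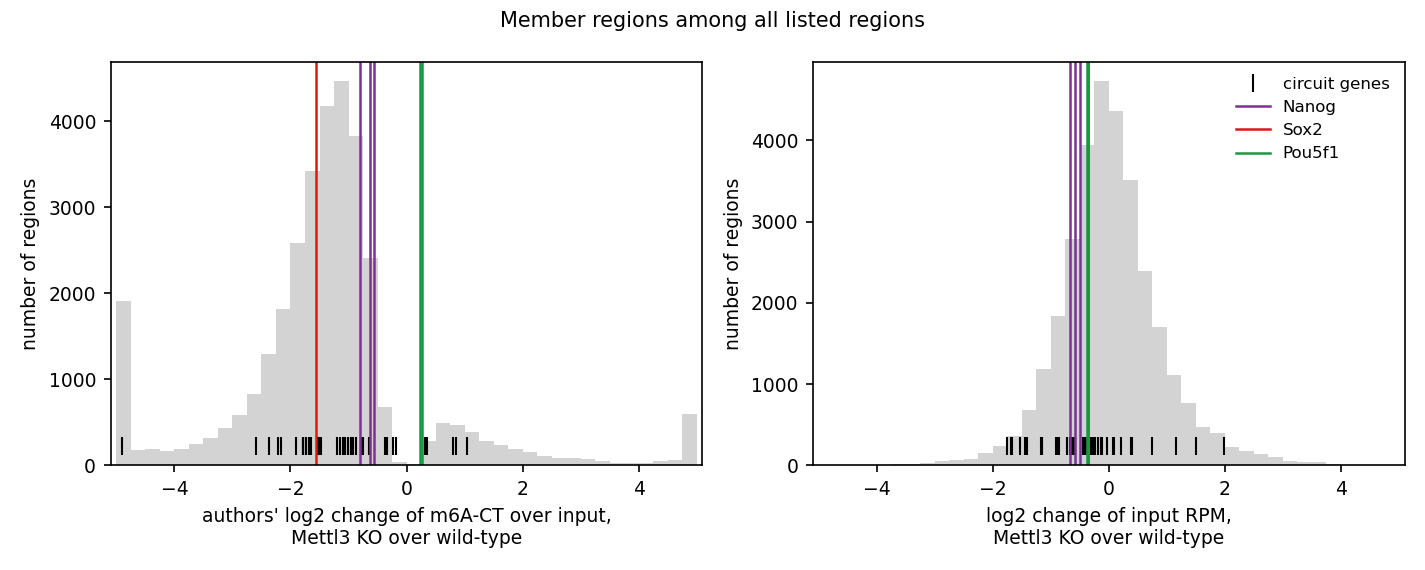
Histograms over all listed regions of the authors' log2 change of m6A-CT over input (left) and the log2 change of input RPM (right), Mettl3 KO over wild-type, with values beyond the axis gathered in the end bins; vertical lines mark the regions of Nanog, Sox2 and Pou5f1, and ticks the other genes of the circuit. Sox2 lies at -1.55 near the middle of the left histogram, Nanog to its right and Pou5f1 above 0. By the plain RPM ratio, without the authors' offset, the first and middle Nanog regions changed by -0.06 and -0.12. With Lars2 and Rn45s left out as well, these became 0.11 and 0.04. All lines of the right histogram lie below 0, with Sox2 at -0.35 hidden behind Pou5f1.

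The peak callers place these signals along the RNA. In the wild-type MeTPeak list Sox2 had 1 peak of 2268 bp at chr3:34549016-34551283, with a deposited fold of 36.8, above 99.3% of the peaks of that list. In Mettl3 KO it had 2 peaks, of 198 bp (chr3:34549114-34549311, 1.88-fold) and 1135 bp (chr3:34549410-34550544, 6.50-fold). They lie inside the wild-type peak and cover 58.8% of it, and the later part of the exon carried no peak in Mettl3 KO. The ratio of the highest folds, 0.18 in Mettl3 KO over wild-type, was undercut by only 1.52% of the 3953 genes with a peak in both genotypes, whose median was 0.66. This fold and the RPM ratio of 2.80 are different measures of much the same stretch, and how the caller computed the fold is not given.

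Nanog kept its main MeTPeak peak to the base. In both genotypes it ran over 4 blocks and 1645 bp within chr6:122657754-122664253, with a wild-type fold of 7.40 and a Mettl3 KO fold of 8.57. A further wild-type peak of 151 bp near the end of the gene (chr6:122664352-122664502, 8.43-fold) had no counterpart in Mettl3 KO. The highest folds, 8.43 and 8.57, gave a ratio of 1.02, above 79.1% of genes, where 76.7% of genes were lower in Mettl3 KO. Pou5f1 had no MeTPeak peak in either genotype; 52.1% of all named genes had a wild-type peak and 41.4% a Mettl3 KO peak.

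In E14 cells the MACS2 lists put peaks on the same genes. Sox2 carried 1 peak at 100K nuclei (chr3:34550124-34550249, 1.57-fold), 1 at 25K (chr3:34550123-34550234, 1.50-fold) and 1 at 5K (chr3:34549123-34549394, 2.17-fold). The first pair overlapped by 111 bp, and the 5K peak lay elsewhere, nearer the start of the exon. EPSC had both places, at chr3:34549123-34549379 (1.54-fold) and chr3:34549775-34550301 (2.64-fold, -log10 q of 147). The summit of the later peak was the same base, 1255 bases into the listed exon, in EPSC and in the 100K and 25K lists of E14. The earlier peak began at the same base in EPSC and the 5K list of E14, with summits 68 bp apart.

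Nanog peaks of E14 fell in the last listed region. The lists had chr6:122663930-122664222 at 100K (3.00-fold), chr6:122664123-122664239 at 25K (2.18-fold) and chr6:122664106-122664239 at 5K (2.53-fold), with summits within 9 bp of each other and 502 to 511 bp before the last listed base. At 5K a further peak lay at chr6:122663205-122663434 (2.24-fold, -log10 q of 125). EPSC had no Nanog peak, the nearest lying 13.4 kb beyond the listed blocks, although EPSC had the longer list. Pou5f1 had no peak in any of the 5 mouse lists, the nearest being 148 kb or more away, but only its 250 listed bp and their 2-kb flanks were searched. MEF had no peak at any of the 3 genes. For comparison, 21.8%, 11.9% and 18.0% of named genes had a peak in the E14 lists at 100K, 25K and 5K, 30.6% in EPSC and 43.5% in MEF.

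**Figure D4:**
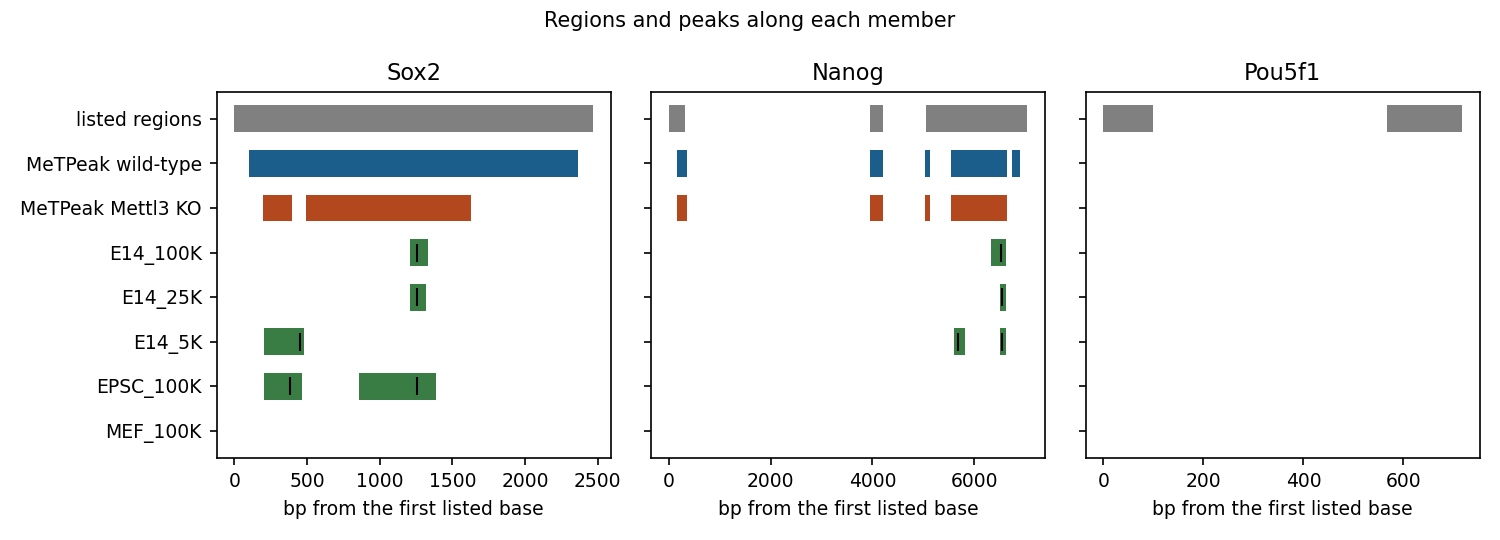
Listed regions, MeTPeak peaks by genotype and MACS2 peaks of the 5 mouse lists along Sox2, Nanog and Pou5f1, in bp from the first listed base; black ticks mark MACS2 summits. The later Sox2 summit lies at base 1255 in 3 lists, the last Nanog summits lie between bases 6536 and 6545, and the Pou5f1 panel holds no peak.

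Each of the 9 MACS2 peaks lay wholly within listed exon blocks and wholly within wild-type MeTPeak peaks. Those MeTPeak peaks covered 2268 of the 2466 listed bp of Sox2 and 1796 of the 2618 of Nanog, and helped define them. As the MACS2 peaks were chosen for lying at or near these blocks, their place inside says little. Cells and antibody also differ. The Mettl3 KO MeTPeak peaks held 7 of them whole, and 189 bp of each of the early Sox2 peaks. These MACS2 peaks were low in fold and higher in rank by significance. By fold the 100K Sox2 peak stood above 0.35% of the E14 list at 100K and the Nanog peak above 10.7%, but by -log10 q above 54.9% and 70.4%. In EPSC the later Sox2 peak stood above 9.83% of peaks by fold and above 95.6% by -log10 q. Fold and q are the authors' own values per peak, and with 1 list per group no test between groups was possible.

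Other genes of the circuit, partners or targets of the 3 factors, were mostly called lower in Mettl3 KO. Of 50 such genes 41 had a region, and by the region with the most reads 36 were called lower and 5 higher in the authors' deposited table, where 87.1% and 12.4% of all 10368 genes were. Their median log2 change was -1.06 over the 41, against -1.33 over all genes with a region. Over the 40 with reads in every column it was -1.04. The lowest were Nodal, a TGF-beta family signal (-2.60), Gbx2, a homeobox gene downstream of LIF signalling (-2.36), Il6st, the shared receptor of the LIF family (-2.22), and Fgf4, a growth factor and known target of Sox2 and Pou5f1 (-2.16). Their ratios of m6A-CT to input went from 6.32 to 1.47 for Nodal, from 3.84 to 1.07 for Gbx2, from 11.3 to 3.47 for Il6st and from 7.11 to 2.29 for Fgf4. Sox2, from 2.80 to 1.35, thus started lower than all 4, and its Mettl3 KO value lay between those of Gbx2 and Nodal.

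The highest changes of the circuit in the authors' deposited table were those of Hells, a chromatin remodelling gene (1.04), Stat3, the transcription factor of LIF signalling (0.86), the DNA methyltransferase gene Dnmt3b (0.81) and Tfcp2l1, a naive-state factor (0.35). Hells went from a ratio of 3.29 to 8.29, Stat3 from 1.00 to 2.56, Dnmt3b from 0.33 to 0.83 and Tfcp2l1 from 1.22 to 2.24. Hells (538 reads), Stat3 (363) and Dnmt3b (462) rest on far fewer reads than the Pou5f1 stretches (6315 and 5756). Hells and Stat3 each also had a region called lower. By RPM, m6A-CT changed by -0.33 (Hells), -0.05 (Stat3), 1.08 (Dnmt3b) and -0.88 (Tfcp2l1). Input changed by -1.66, -1.41, -0.25 and -1.76 in the same order. A wild-type ratio below 1 was found for 4 of the 41, namely Nr0b1, Dnmt3b, Stat3 (only just, at 0.999984) and Trim28. Of these, 3, all but Nr0b1, were called higher, as Pou5f1 was. Trim28 also had a region called lower. Over all regions, 76.7% of the 2729 regions below 1 in wild-type were higher on the authors' scale, and 42.3% of the 104 such regions with at least 1000 wild-type input reads. These regions, as the circuit genes below 1, were picked by the wild-type ratio from which the change is measured, which favours rises. No link between a low ratio and a rise can be drawn from these shares.

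Relatives of the members by DNA-binding domain had low wild-type input RPM where listed, with no scaling for length. Of 36 Sox, Pou and Nk-like homeobox genes 17 had a region, and 15 were called lower and 1 higher in the authors' deposited table, near the 87.1% and 12.4% of all genes. The Sox genes gave changes of -1.25 (Sox1), -3.71 (Sox3), -1.22 (Sox4), -2.43 (Sox6), -1.51 (Sox11), -1.16 (Sox12), -0.89 (Sox13), -2.29 (Sox18) and -1.57 (Sox21). Sox2, at -1.55, lay within their range. The lowest of these values rest on few wild-type input reads, 4 for Sox3, 4 for Sox6 and 18 for Sox18. The POU genes gave -1.12 (Pou2f1), -3.50 (Pou3f3, on 9 wild-type input reads), -0.76 (Pou4f1) and -1.59 (Pou6f1), all lower, unlike Pou5f1. This difference was not tested. Nkx2-5 gave -4.22 on 25 reads. Sox14 (9 reads, not called), Nkx6-2 (36 reads, called higher) and Barx1 (28 reads, called lower) had a column without reads, so no fold is given for them. Only Pou2f1 and Sox12 had over 10 RPM of wild-type input, at 12.4 and 10.7 RPM. These values are far below the 106 RPM of Sox2 but near the 14.5 RPM of the first Nanog region. A relative without a region is not thereby at 0.

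The genes most like each member were found by distance over 3 log2 measures, the ratio in each genotype and the input change, among 5422 genes with at least 50 reads in every column. Nearest to Nanog were Gys1 (distance 0.07), Smg5 (0.08) and Rtn3 (0.10), and nearest to Sox2 were Zfp689 (0.09), Pofut2 (0.09) and Plekhm1 (0.10). Pou5f1 had no neighbour as close, with Rps4x at 0.19, Atp5a1 at 0.22 and Rack1 at 0.24. Rps4x, a ribosomal protein gene, had ratios of 0.61 and 1.16. These distances rest on 4 pooled columns and are a description with no test.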

How the data were processed

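Trim Galore, STAR 2.7.2, MACS2 and the build mm9 are named per the submitters' processing notes, with no order of steps; MeTPeak and exomePeak2 are named by the labels, with settings not given in the sources used here. In the 5 mouse MACS2 lists the authors deposited a score (10 times -log10 q), a fold ratio, -log10 p and -log10 q, and summit offsets among other values. The MeTPeak lists hold a deposited p-value, log10 of p and FDR, and a fold ratio of m6A-CT over input. The exomePeak2 table holds deposited RPM per pooled group, a log2 fold change, a p-value and an FDR. All RPM values (100%) were whole multiples of 1 read within 0.01 reads, which gave back reads. Starts were counted from 0 in the files and are printed from 1; on that reading 180 regions matched a RefSeq gene length, while 28, as Sox2, were 1 base shorter, so a start may be off by 1 base.

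Ratios, log2 changes and 95% counting intervals were computed from reads with Python 3.11.15 (numpy 2.4.6, pandas 2.3.3, scipy 1.17.1), and windows with bedtools 2.31.1. On data simulated with counting error alone, 95.2% of intervals over 29473 regions covered the true value. The intervals assume that same error, so spread between libraries and PCR copies was not checked. A Wald test on the reads, which compares these pooled columns and not the genotypes, called 21376 of 31111 regions. The authors' FDR threshold was 0.05. edgeR was planned for values per replicate and not run. Members, lists and rules were chosen with earlier results of these data known. Named genes are the members, the 4 lowest and 4 highest circuit genes with at least 50 reads, every Sox, Pou and Nk-like gene with a region, and the 3 nearest genes by distance. The human list was not used here. Alternatives changed the scaling, the region per gene, the peak distance and thresholds, the list length and the minimum of reads.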

Additional observations from a re-analysis of the deposited data

Results flagged for a closer look

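The 6 regions of the members are listed here because the authors' test of the difference between genotypes passed FDR 0.05 for each. In the authors' deposited table the log2 change of m6A-CT over input in Mettl3 KO was -1.55 for Sox2 (FDR listed as 0), -0.56 (FDR 1.99e-05), -0.63 (1.04e-20) and -0.80 (1.44e-90) for the first, middle and last Nanog region, and 0.23 (0.012) and 0.27 (0.00427) for the 100-bp and 150-bp stretches of Pou5f1. A member that passes says little by itself, since 88.8% of all regions passed in the lower and 11.0% in the higher direction.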

How the results depend on the processing

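No paired analysis was possible because the files give 1 pooled value per group; for the same reason no replicate could be left out. By RPM with no offset, the changes of m6A-CT over input were -0.057, -0.12 and -0.28 for Nanog (first to last region), -1.05 for Sox2 and 0.70 and 0.74 for Pou5f1. Without the reads of Lars2 and Rn45s they were 0.11, 0.044, -0.11, -0.89, 0.87 and 0.91, so the first 2 Nanog regions turned. Centred on the median of all regions they were 0.76, 0.70, 0.55, -0.23, 1.52 and 1.56, so all 3 Nanog regions turned. The ratios without those reads were, in wild-type and Mettl3 KO, 0.66 and 0.72, 0.46 and 0.48, and 0.68 and 0.63 for Nanog, 1.04 and 0.56 for Sox2, and 0.23 and 0.43, and 0.25 and 0.47 for Pou5f1. Both genes hold more of the input than of the m6A-CT reads, so leaving them out multiplied every wild-type ratio by 0.371 and every Mettl3 KO ratio by 0.417. With the same reads left out, input changes became -0.36, -0.28, -0.18, -0.041, -0.041 and -0.067 in the same order of regions (Nanog, Sox2, Pou5f1). Summing a gene's regions, or centring input on its median, moved no value beyond its counting interval.

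The MeTPeak fold of Nanog in wild-type was 7.40 for the peak with the lowest p-value and 7.49 as a mean weighted by length, and that of Sox2 in Mettl3 KO was 5.81 as such a mean; the cause was not tested. With -log10 q of at least 20, 0 peaks were left for Nanog in E14 at 25K and 0 for Sox2 in E14 at 100K and at 25K, and 1 for Sox2 in EPSC, which also kept 1 with lists cut to 3923 peaks. Peaks by overlap alone and within 10 kb gave the same counts. With at least 50 reads, 0 family genes were called higher, and with at least 200 reads in each column 1 of the 3 genes nearest to Sox2 was kept. Depth of the MACS2 lists is unknown, so a missing peak may lie below what they could detect.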

Other observations

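Input RNA of the other circuit genes, which needs no antibody, spread widely around the members. By RPM, input was lower in Mettl3 KO for 31 of the 40 circuit genes with reads in every column, against 51.1% of all regions. With Lars2 and Rn45s left out, a setting chosen after the data were examined, every log2 input change rose by 0.31, and 22 of the 40 were lower, against 32.7% of regions. The gene counts use the region with the most reads, while the shares cover all regions, so they are unlike sets. Regions with at least 1000 wild-type input reads had a median change of -0.40 by RPM, against -0.02 over all regions. By RPM, the largest falls were those of Tfcp2l1 (-1.76, 95% counting interval -1.87 to -1.64), Klf5 and Hells, and the largest rises those of Lefty2 (1.98), Klf2 (1.50) and Gbx2 (1.16); these genes were named after their values were seen. Klf5, a naive-state factor, changed by -1.69 and Hells by -1.66. The neural gene Sox1 fell from 4.77 to 0.47 RPM of input, a log2 change of -3.34, among libraries where Sox2 input went from 106 to 82.7 RPM. This was the largest fall among the 14 Sox, Pou and Nk-like genes with reads in every column. Input was lower for only 6 of these 14, and Sox11 rose from 4.99 to 11.3 RPM (1.18). Each of these rests on 1 pooled column per genotype.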
